A study of Oryza sativa with 8 samples.

Results

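In rice leaf blades, 68 genes that were close to silent in control plants were transcribed at 2 TPM or more after salt exposure, and none of them was in the list of genes that changed in leaf sheaths. TPM is a read number per transcript length, scaled to the same total in every library. The 68 genes were chosen by their mean blade levels in the authors' deposited table: below 0.5 TPM in control, at least 2 TPM and at least 20 reads with salt, and no entry in the sheath table. Of the 4623 genes in the blade table, 116 met these level and read thresholds (2.51%). The sheath table held 46 of the 116, and the rule passes over 2 more by identifier, which leaves 68. Because these values chose the genes, their levels, ratios and q-values (p-values adjusted over many genes) are a description and carry no test.

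RNA was sequenced from 8 samples of rice (Oryza sativa) grown in nutrient solution. Leaf blades and leaf sheaths were each sampled without and with salt, which makes 4 groups of 2 samples. Salt groups had received 100 mM NaCl for 24 h. The series is about tolerance of sodium inside the tissue, and its design text names the landrace SZK as the plant whose RNA was sequenced. The sample labels themselves give no variety or plant age, and nothing tells whether both samples of a group are from separate plants. The tables hold a mean per group for genes that the submitters had already selected as changed, so no value per sample can be shown, and neither can the spread between the 2 samples. Errors given here are 95% counting intervals of the ratio of reads summed over the group, scaled to the deposited fold changes, and they cover counting error only. The listed blade genes included RBCS (Os12g0274700), the small subunit of Rubisco, at 53569 TPM in control and 28778 TPM with salt, and CAB2R (Os01g0600900), a light-harvesting protein, at 15132 and 10873 TPM, both defining genes of green leaf tissue. The 3 identifiers on the list of root and meristem markers were not in the blade table, which lists changed genes only and so does not give their level.

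A gene that is close to silent in an unstressed leaf and transcribed under stress is usually kept off until a signal arrives. In plants short of water or exposed to salt, abscisic acid is the best known such signal, and its targets include late embryogenesis abundant (LEA) proteins that accumulate in drying seeds. Some heat shock genes, though not all, also have little expression before stress. Small heat shock proteins bind proteins that have begun to unfold. Plant tissue that draws on lipid uses the glyoxylate cycle, in which isocitrate lyase and malate synthase turn acetyl groups into organic acids. In bulk tissue, a gene switched on in few cells and one weakly transcribed in many cells cannot be told apart.

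Together the 68 genes rose from a summed 17.2 TPM in control to 292 TPM with salt, a 17.0-fold ratio of sums. Over both libraries of a group, that was 727 reads in control and 11575 with salt. The control mean ran from 0 to 0.495 TPM with a median of 0.237, and the salt mean from 2.04 to 18.9 TPM with a median of 3.16. All listed blade genes had medians of 15.8 TPM in control and 19.1 TPM with salt. With salt, 5 members stood above 10 TPM, 10 were between 5 and 10 TPM, and 53 were below 5 TPM, of which 31 were below 3 TPM. The 5 most abundant members held 23.5% of the summed salt TPM. Most of these genes therefore had low mean levels even after salt, and most of the summed level lay outside the 5 most abundant.

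**Figure D1:**
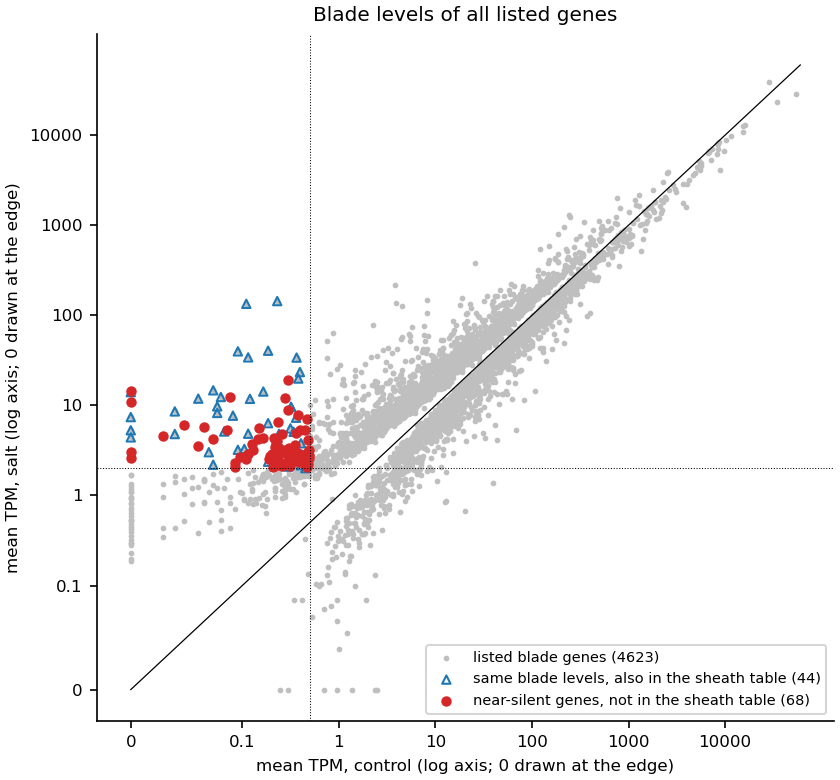
Mean TPM with salt against mean TPM in control for all 4623 listed blade genes, on log axes with 0 drawn at the edge; each point is a gene, the solid line marks equal levels and the dotted lines the thresholds of 0.5 and 2 TPM. The 68 members (red), none of them in the sheath table, reach at most 18.9 TPM with salt, while the 44 genes with the same blade levels that are also in the sheath table and not passed over by the rule (blue triangles) reach 144 TPM.

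Every member was higher with salt, against 51.7% of the listed blade genes, and the authors' deposited table gives 67 of the 68 a log2 fold change of 2 or more, against 8.5%. Both counts follow from the thresholds, since 2 TPM against 0.5 TPM is already a 4-fold ratio, and nothing is read from them. The median log2 fold change of the members in the authors' deposited table was 3.60, with a range from 1.95 to 9.44. The authors' deposited table gave 55 members (80.9%) a q-value below 0.001, against 55.3% of all listed blade genes. It gave 11 members a q-value from 0.001 to 0.01, and the other 2, Os07g0640300 and Os05g0342100, q-values of 0.011 and 0.028. These 2 had means of 20 and 25.5 reads with salt, among the lowest of the set.

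There were 4 members with 0 control reads, at high and at low salt levels. Os11g0533400 went from 0 to 14.5 TPM, a mean of 140 reads with salt, and was 85.4-fold higher than a floor of 3 reads over both control libraries; by the lower end of its counting interval it was at least 69.0-fold higher. Os03g0133100 went from 0 to 10.8 TPM, with a mean of 90 reads, 54.9 times the floor, and by its interval was at least 44.2-fold higher. Os05g0151200 and Os07g0104100, also without a control read, reached only 2.60 and 3.06 TPM, 17.1 and 16.8 times the floor, and by their intervals were at least 13.4-fold and 13.2-fold higher. A read number of 0 sets only an upper limit on the level, so a silent gene and one transcribed at a trace cannot be distinguished here.

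A further 10 members had 1 to 3 control reads over both libraries, which fixes their ratios only loosely. Os05g0458600 had 1 read in control and 437 with salt, going from 0.025 to 6.03 TPM. Its ratio of reads was 400-fold, with a counting interval from 71.4-fold to 15837-fold. Os01g0843800 likewise had 1 control read against 315 with salt and went from 0.015 to 4.60 TPM, a 288-fold ratio (51.4 to 11426). These 2 genes also ranked highest when any control number below 3 reads was raised to the floor of 3. Os01g0910800 went from 0.075 to 12.4 TPM, the third highest salt level, and Os03g0723400 from 0.040 to 5.83 TPM. Their ratios, 145-fold (25.6 to 5749) and 139-fold (24.6 to 5532), again rest on 1 control read each. Os03g0184100 had 3 control reads and 216 with salt, a 65.9-fold ratio (22.3 to 322), and Os04g0430900 had 2 and 164, a 75.1-fold ratio (20.5 to 625). Os02g0824500 had 1 and 97, an 88.8-fold ratio (15.6 to 3543). The intervals of these 7 genes overlap widely, so no order among them is given by the counts.

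The member with the most reads was LAC10 (Os03g0273200), a laccase, one of the copper enzymes of the cell wall that oxidise lignin precursors and other phenolics. It had the highest salt level of the set and went from 0.300 to 18.9 TPM, with means of 11 reads in control and 698 with salt. Its ratio of reads was 58.1-fold with a counting interval from 38.2-fold to 93.0-fold, and the authors' deposited table gave q = 5.8e-64, the lowest of the members. Os07g0604400 followed the same pattern at a lower level, from 0.280 to 12.1 TPM, a 37.5-fold ratio (21.7 to 70.8). Both had enough control reads for an interval that spans less than 4-fold.

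HSP23.2 (Os04g0445100), a small heat shock protein, went from 0.150 to 5.59 TPM. With 4 control reads and 142 with salt over both libraries, its ratio was 32.5-fold (12.4 to 121). It was the one small heat shock gene recognised among the members. The list of small heat shock genes used for comparison had 8 of 11 identifiers in the blade table, all 8 higher, and in the authors' deposited table their median log2 fold change was 3.80. None of the 8 was a member.

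Os01g0705200, on the list of LEA proteins and dehydrins, went from 0.235 to 6.47 TPM, a 24.1-fold ratio (11.4 to 60.7). That list had 7 of 11 identifiers in the blade table, all 7 higher, and Os01g0705200 was the only one that was a member. Os05g0542500, Os11g0454300 and Os03g0168100 of that list also met the blade thresholds but were in the sheath table. With salt they reached 134, 144 and 8.57 TPM in blades. MFT1 (Os06g0498800) belongs to the MOTHER OF FT family, whose Arabidopsis member acts in seed germination under abscisic acid. It went from 0.240 to 3.33 TPM on 5 control reads and 66 with salt, a 12.1-fold ratio (4.93 to 38.4). The list of abscisic acid genes had no member, although 9 of its 12 identifiers were in the blade table, 7 higher and 2 lower. Among the higher ones, Os07g0154100 went from 0.055 to 9.75 TPM and met the blade thresholds, but it was in the sheath table.

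MS (Os04g0486950), malate synthase of the glyoxylate cycle, went from 0.450 to 5.29 TPM. Its means were 16 reads in control and 180 with salt, a 10.3-fold ratio (7.17 to 15.3). ICL (Os07g0529000), isocitrate lyase of the same cycle, met the blade thresholds as well but was in the sheath table. It went from 0 to 7.41 TPM in blades. The sheath table listed ICL from a level of 0.260 to 6.69, in a unit that is not stated. Malate synthase had no entry there and its sheath level was not analysed here.

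GH3-8 (Os07g0592600), an enzyme that joins auxin to amino acids and so lowers the free hormone, went from 0.110 to 2.56 TPM. Its 9 control reads and 196 reads with salt gave a 19.9-fold ratio (10.3 to 44.3). Nrat1 (Os02g0131800), an aluminium transporter of the NRAMP family known from rice roots, went from 0.455 to 2.29 TPM. It had one of the smallest changes of the set, a 4.45-fold ratio (2.97 to 6.89). The lists of oleosins and seed storage proteins, of labdane diterpenoid genes and of alpha-amylases had no identifier in the blade table. Those of pathogenesis-related proteins (3 of 6 listed, all 3 lower), SWEET sugar transporters (3 of 7 listed, 2 higher) and stress NAC and DREB factors (3 of 8 listed, all 3 higher) had entries but no member.

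**Figure D2:**
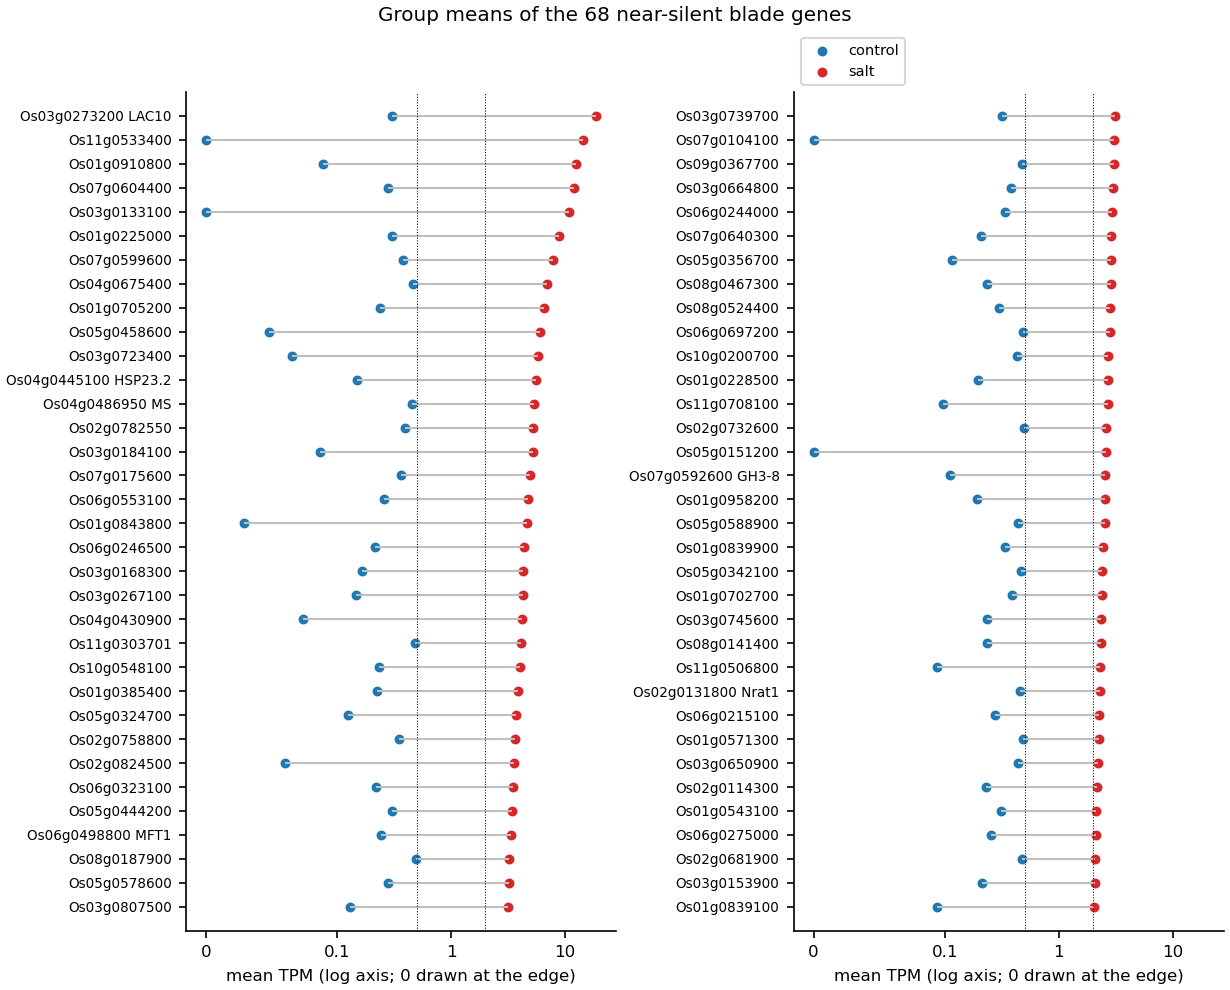
Mean TPM in control (blue) and with salt (red) of each of the 68 members, on a log axis with 0 drawn at the edge, sorted by salt level from the top of the left panel to the foot of the right panel; dotted lines mark 0.5 and 2 TPM. LAC10 is highest at 18.9 TPM and Os01g0839100 lowest at 2.04 TPM, and 4 members start at 0.

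Among members without a name, Os01g0225000 went from 0.300 to 8.83 TPM, a 26.1-fold ratio (13.6 to 57.8), and Os07g0599600 from 0.375 to 7.79 TPM, an 18.3-fold ratio (10.3 to 35.9). Os04g0675400 went from 0.465 to 6.97 TPM, a 13.1-fold ratio (8.93 to 19.98). These had higher salt levels than most members, and counting error alone leaves their ratios fairly narrow intervals. The authors' deposited table gave Os04g0675400 q = 1.2e-05, much weaker than q = 1.3e-17 for MS at similar mean reads. Os04g0675400 had means of 14 and 200.5 reads, and MS had 16 and 180. The intervals leave out the spread between the 2 samples, which cannot be shown here. Os11g0708100 went only to 2.69 TPM, from 0.095 TPM, yet its 25.2-fold ratio (9.56 to 94.0) was among the 15 largest once control numbers below 3 reads were raised to that floor. Level and ratio thus ranked this gene differently, but the rankings largely overlapped at the top: 10 genes were among the 15 highest in both.

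The other 45 members were outside the 15 highest by level and by ratio, were on no gene list and have no name here. Their salt levels ran from 2.04 to 4.92 TPM with a median of 2.82, and their control levels from 0 to 0.495 TPM with a median of 0.275. Their mean reads with salt ran from 20 to 145.5. The 43 of them with control reads had ratios from 3.87-fold to 26.1-fold with a median of 8.66-fold. For 27 of the 45 the whole counting interval lay above 4-fold. The smallest ratios of the set were those of Os02g0681900, 3.87-fold (2.66 to 5.77), and Os01g0571300, 4.16-fold (2.65 to 6.77). The lowest interval bound, 2.34-fold, was that of Os05g0342100.

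**Figure D3:**
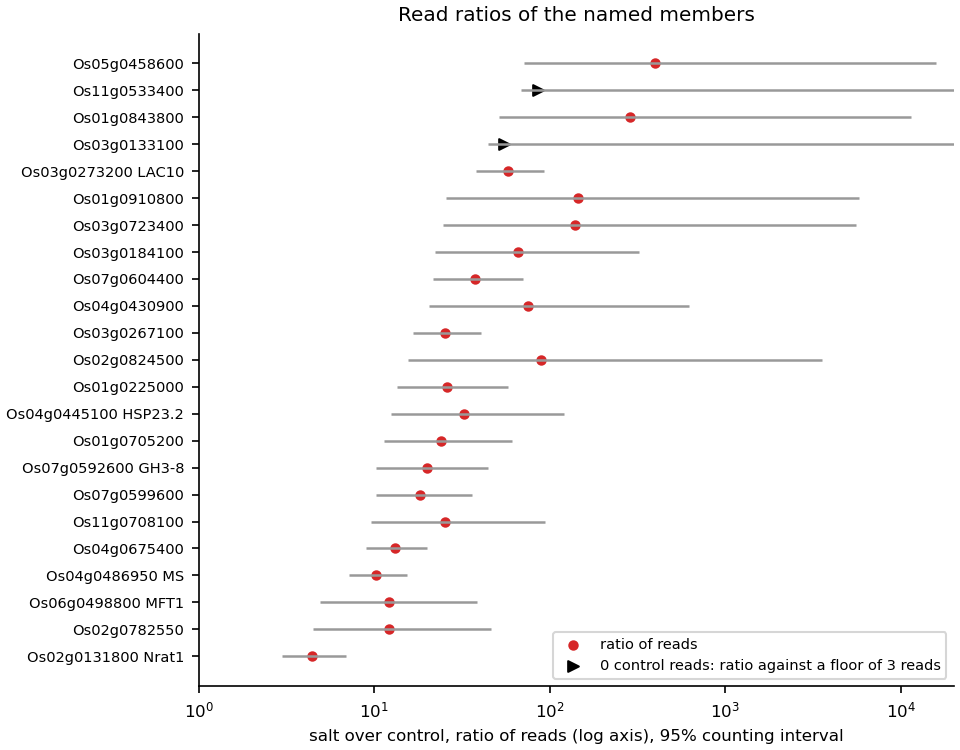
Ratio of salt to control reads of the 23 members that stood among the 15 highest by salt TPM or by ratio, were on a gene list or have a name, on a log axis; lines are 95% counting intervals, arrowheads are the ratios of the members with 0 control reads against a floor of 3 reads, and a line that reaches the right edge has no upper limit. The interval of LAC10 runs from 38.2 to 93.0, while that of Os05g0458600, with 1 control read, runs from 71.4 to 15837.

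Some members lie beside other listed genes that were higher with salt, and some beside genes that were lower. Neighbours were judged by the numbers in the identifiers, which follow the order of genes along a chromosome. Of the 68 members, 38 had a listed gene within 500 identifier numbers on the same chromosome, which makes 79 pairs of a member and a neighbour. In 48 of the pairs (60.8%) the neighbour was higher with salt, against 51.7% of all listed blade genes, and the authors' deposited table gives the neighbour a log2 fold change of 2 or more in 12 of them (15.2%), against 8.5%. Several of the 12 share a member: HSP18.1, HSP17.4 and HSP17.7 are neighbours of Os03g0267100, and Os11g0303600 and Os11g0303800 of Os11g0303701. Such pairs are not independent, and nothing is read from these shares.

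Os03g0267100 lies between HSP18.1 (Os03g0267000) and HSP17.7 (Os03g0267200), small heat shock genes. It went from 0.145 to 4.25 TPM, while HSP18.1 went from 2.25 to 78.7 TPM, HSP17.7 from 3.63 to 22.9 TPM and HSP17.4 (Os03g0266900) from 8.15 to 149 TPM. Its control mean of 11.0 reads is not the mean of 2 whole numbers, so reads were apportioned by estimation, as for 5.58% of the listed genes and for no other member. It also had 71.6 reads per TPM with salt, the most of any member, against a median of 18.1 for the members and 24.6 for all listed blade genes; this number grows with transcript length. The RefSeq table of assembly ASM3414082v1 holds 0 genes between HSP18.1 and HSP17.7. Whether reads of the neighbouring heat shock genes contribute to this member was not tested.

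Os02g0782550 has the identifier next to HSP18.6 (Os02g0782500) and went from 0.395 to 5.29 TPM, a 12.1-fold ratio (4.47 to 46.2). HSP18.6 went from 3.56 to 38.5 TPM. The log2 fold changes of the member and of HSP18.6 were 3.60 and 3.25 in the authors' deposited table. At 5.01 reads per TPM, Os02g0782550 had the fewest of any member. Whether the deposited counts used the strand of the reads is not given in the sources used here. Whether the transcripts of Os02g0782550 and HSP18.6 overlap was not examined, and whether they share reads was not tested.

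On chromosome 11, Os11g0303701 went from 0.480 to 4.12 TPM, between Os11g0303600, from 0.405 to 3.79 TPM, and Os11g0303800, from 0.115 to 4.84 TPM. All 3 met the blade thresholds, and the outer pair were also in the sheath table. On chromosome 3, Os03g0168300 went from 0.165 to 4.29 TPM and Os03g0168100, a gene of the LEA list, from 0.020 to 8.57 TPM. Os03g0168200, which lies between them, went from 103 to 179 TPM. Os01g0839100 and Os01g0839900 were the only members within 1000 identifier numbers of each other, at 2.04 and 2.43 TPM with salt.

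**Figure D4:**
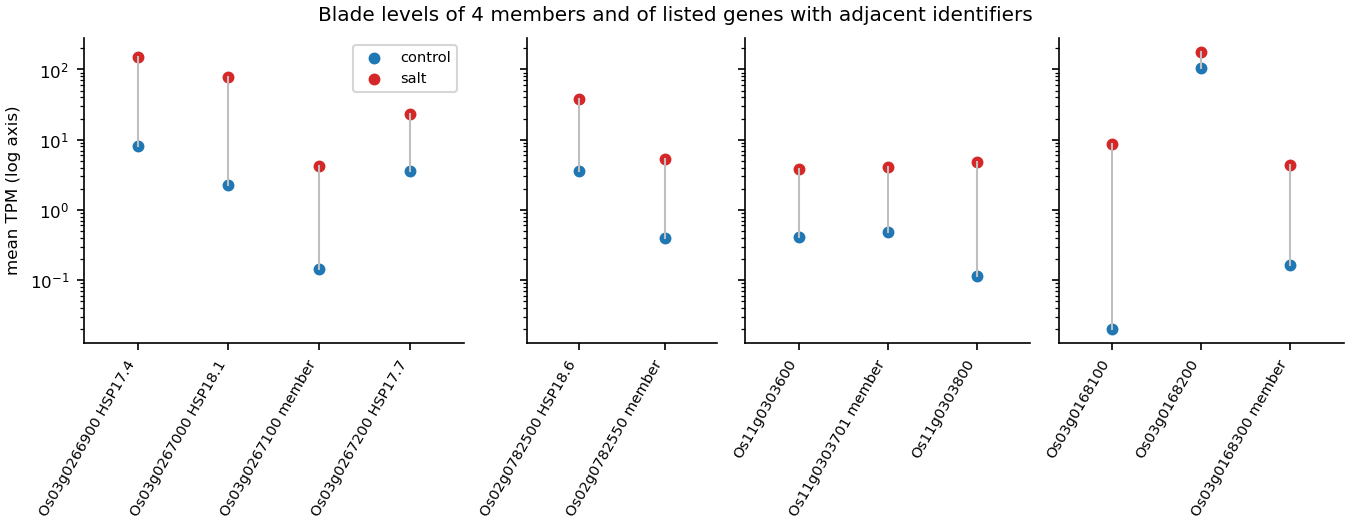
Mean blade TPM in control (blue) and with salt (red), on a log axis, of 4 members and of listed genes with adjacent identifiers. Os03g0267100 reaches 4.25 TPM beside 3 small heat shock genes at 22.9 to 149 TPM, and the 3 genes around Os11g0303701 reach 3.79 to 4.84 TPM.

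By chromosome, 12 members (17.6%) were on chromosome 1 and 12 on chromosome 3, each of which held 15.2% of the listed blade genes. Chromosome 12 held 0 members and 4.8% of the listed genes. The rule passes over the identifiers at the start of chromosome 12, which that share still counts.

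The 68 were set beside the 44 genes that met the same blade thresholds, were also in the sheath table and were not passed over by the rule. Those 44 had a median of 5.95 TPM with salt in blades and of 0.142 TPM in control, against 3.16 and 0.237 TPM in the members. In the authors' deposited table their median log2 fold change was 5.84, against 3.60. They included LEA19 (Os05g0542500), a LEA protein, at 134 TPM, and SWEET15 (Os02g0513100), a sucrose transporter, at 11.8 TPM with salt. Their summed salt level was 691 TPM. In sheaths, 43 of the 44 were higher with salt and 1 was lower. The share of higher genes in the whole sheath table was not computed here, so nothing is read from this count. The share of genes that were in the sheath table was 39.7% for the 116 genes, against 17.2% of all listed blade genes. Only 51.7% of all listed blade genes were higher with salt, and most of them changed less than the 116. The share among genes with equal rises from a higher control level was not computed here. Nothing is therefore read from the difference between 39.7% and 17.2%. Among the 112 left after the identifiers that the rule passes over, it was larger where the blade salt level was larger: 24.4% of 41 genes from 2 to 3 TPM, 26.7% of 30 genes from 3 to 5 TPM, 54.5% of 22 genes from 5 to 10 TPM and 73.7% of 19 genes above. Absence from the sheath table does not show that a gene was unchanged in sheaths, because a gene with few reads there could miss the submitters' threshold. The deposited sheath log2 fold changes of ICL (2.61) and Os11g0181200 (2.40) equal log2 ratios of their sheath levels with 1 added to each level. That addition shrinks the change of a gene at a low level. In blades the deposited values of these genes were 10.3 and 8.88, so blade and sheath fold changes are on different scales.

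The opposite pattern was rare among listed genes. With control and salt exchanged in the thresholds, 4 genes fell from at least 2 TPM to below 0.5 TPM, and 3 of them, Os05g0500600, Os03g0725200 and Os09g0445600, were not in the sheath table. These 3 went from 2.25 to 0.380 TPM, from 2.83 to 0.415 TPM and from 2.12 to 0.280 TPM. Os01g0608101, which was in the sheath table, went from 2.36 to 0.130 TPM. The blade table listed 283 genes below 0.5 TPM in control (6.12%), 277 of them higher with salt and 6 lower. A gene that starts below 0.5 TPM can hardly fall enough to be listed as changed. That split is therefore largely set beforehand, and nothing is read from it. Of the 277, 161 stayed below the salt thresholds.

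The thresholds cut through a continuous range. The members closest to the control threshold were Os02g0732600 and Os08g0187900, each at 0.495 TPM, and Os06g0697200 at 0.485 TPM, while Os08g0356700 at 0.510 TPM and Os01g0566500 and Os01g0845100 at 0.525 TPM fell outside. For the salt level, Os01g0839100 at 2.04, Os03g0153900 at 2.06 and Os02g0681900 at 2.07 TPM were inside. Os11g0490900 at 1.96, Os05g0171050 at 1.95 and Os05g0115100 at 1.94 TPM were outside. For reads, Os07g0640300 with a mean of 20 was inside, and Os03g0822400 with 19.5 and Os01g0644200 with 18 were outside.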

How the data were processed

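Leaf total RNA went into an mRNA library kit, per the labels' protocols. The submitters' processing notes name HISAT and the mouse build mm10; of these rice tables, the build, annotation, counting method and test are therefore not known from the sources used. The blade table, per the file headers, has for each group the mean TPM, mean FPKM and mean reads, which are estimated counts, with a log2 fold change and a q-value; Case1 was taken as salt. The sheath table deposited by the authors gives a level of unnamed unit, treated as a signal, and a log2 fold change. The listed blade genes add up to means of 10745825 reads in control and 9995664 with salt; sheath depth is unknown.

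Computed here were the counts, medians and ratios of reads over a group, with Clopper-Pearson 95% intervals, scaled by the median offset of the deposited log2 fold change from the read ratio (-0.13). That interval was tested on simulated data with counting error only. Its coverage with spread between samples or with estimated reads was not tested. A floor of 3 reads over a group stood in for 0 control reads and, for ranking only, for 1 or 2. No test was made, since no file gives values per sample and the blade contrast chose the genes.

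Members and lists were chosen with earlier results of these data known. Members were named in the text if among the 15 highest by salt TPM or by ratio against the floor, on a gene list, next to a threshold or next to another member; neighbours, the 2 genes at high q, the genes at 0 and the genes with a symbol other than MS were chosen after their values were seen. The RefSeq table (ASM3414082v1) holds 0 of the 68 identifiers. Names come from general knowledge: for 30 of 30 such pairs the table has the symbol once, on the chromosome that the identifier states, and 79 of 79 pairs of these genes run in the same order. The 30 leave out RBCS and CAB2R, whose names were not checked, and include some genes used only to check the order. RefSeq coordinates were used only for this order and for the genes between HSP18.1 and HSP17.7. No sequences or descriptions were used here. The work used SciPy 1.17.1, pandas 2.3.3 and numpy 2.4.6 in Python 3.11.15, with figures from matplotlib 3.10.9.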

Additional observations from a re-analysis of the deposited data

How the results depend on the processing

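The number of genes in the set depends on its thresholds. It was 35 with control below 0.25 TPM, 128 with control below 1 TPM, 24 with at least 4 TPM with salt, 45 with a mean of at least 50 reads with salt and 112 when genes of the sheath table were kept. It was 61 with FPKM in place of TPM, 55 with q below 0.001 and 70 with the identifiers that the rule passes over kept, an alternative chosen after seeing the data. The median log2 fold change of the members was 3.60 as deposited and also from read ratios with control numbers below 3 reads raised to the floor of 3; as a ratio of TPM it was 3.39 with a pseudocount of 0.1 and 1.77 with a pseudocount of 1. A pseudocount of 1 exceeds every control level of the set, so it lowers each ratio by construction. The thresholds fix the direction of every member under these 3 scales. Of the 23 members in the plot of read ratios, 22 left their counting interval with a pseudocount of 1, 2 with 0.1 and 0 with the floor. No paired analysis was possible because the tables give group means only, and for the same reason no replicate could be left out; the promoter motifs planned were not run because no sequences were at hand. Of the 68 members, 23 rest on fewer than 50 mean reads with salt, and 14 on at most 3 control reads over both libraries.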
